A study of Mus musculus with 39 samples.

Results

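Interferon-stimulated genes are the genes that a cell switches on when it senses an interferon, and 41 of them were followed here across 14 groups of mouse libraries. The members were a list of 41 gene symbols, and all 41 were found among the 55011 symbols of the deposited count table. Of these, 35 are counted as type I targets (antiviral genes best known from the response to interferon-alpha and interferon-beta) and 6 are GTPases best known from the response to interferon-gamma (Gbp2, Gbp3, Ifi47, Irgm1, Igtp and Iigp1). The members were not chosen by a measured value of these libraries, but they were chosen with earlier results of these data known.

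Type I interferons signal through the receptor chains Ifnar1 and Ifnar2 and the kinases Jak1 and Tyk2 to a complex that holds Stat2 and Irf9 and binds the interferon-stimulated response element (ISRE). Interferon-gamma signals through Ifngr1 and Ifngr2 to the gamma-activated sequence (GAS) and switches on Irf1 and the large GTPases. In injured muscle the main candidates for such a response are the monocytes and macrophages that clear dead fibres, alongside endothelial cells, fibro-adipogenic progenitors and satellite cells, the stem cells of muscle.

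RNA was counted in 39 libraries. The γδ T cells with the Vγ6 receptor chain were sorted at 1000 cells per library from wild-type colon with no treatment (n = 3) and from wild-type muscle at day 3 of injury by cardiotoxin, a venom toxin that kills muscle fibres (n = 3). Whole tibialis anterior muscle, at 2 ng of RNA per library, was taken at days 1, 3, 7 and 14 of cardiotoxin injury from wild-type (WT) and Tcrd-DTR (DTR) mice, with n = 3 per group and n = 2 for DTR at day 7. All mice of both genotypes in this time course had received diphtheria toxin, which kills cells that carry its receptor, here meant to be the γδ T cells. A further set of day 7 muscles came from cardiotoxin-injured wild-type mice. These received either the recombinant cytokine IL-17A, called rIL-17A here, by intraperitoneal and intramuscular injection (n = 2), or PBS in its place (n = 2). Satellite cells were sorted at 1000 cells per library at day 1 of cardiotoxin injury from WT and DTR mice, both given diphtheria toxin (n = 3 each). The labels give no age, and p-values measure the spread between these samples.

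Libraries held 2372139 to 10974862 counts. The γδ receptor gene Trdc stood at 901 to 1216 CPM (counts scaled to a library total of 1000000) in Vγ6 cells and at 0 to 2.02 CPM in whole muscle. At day 3 it was listed at 0.769, 0.959 and 1.397 CPM in WT and at 0 in all 3 DTR libraries, while at day 1 it was 0.451, 0.521 and 0.523 CPM in WT and 0.182, 1.06 and 0.378 CPM in DTR. Cd163l1, a scavenger receptor gene of γδ T cells, had 49, 47 and 12 counts in WT and 5, 2 and 0 in DTR at day 3, and the receptor gene Trgc1 had 12, 7 and 8 counts and 0, 2 and 0. The sum of 6 γδ T cell genes was 16.5 to 24.5 CPM in WT and 6.37 to 13.4 CPM in DTR at that day, without overlap. In sorted satellite cells Myod1 stood at 2991 to 4352 CPM and in Vγ6 cells Trgv6 at 582 to 1013 CPM, and both are defining genes of the labelled cells. The library of DTR muscle replicate 2 at day 1 stood apart with 35394 genes detected against 28407 to 31846 in the other day 1 libraries, and satellite cell library 1 of DTR held 2505 CPM of 5 myofibre genes against at most 54.2 CPM in the others. Counts of members called by the main test of a comparison that rest on either are given with and without it.

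The start sites of the members were read first, since the ISRE is the element by which type I targets are known. RefSeq (GRCm38.p6, the mm10 build) gave a start for 31 of the 41 members. The core searched was GAAANNGAAA on both strands, in the 250 bases before to 50 bases after each start. It was found for 18 of the 31 members (58.1%), against 3.99% of all 27025 genes, counted the same way over each gene's promoters, and 3.44% of all 32851 promoters of the same length. By class it was found for 14 of 26 type I targets and 4 of 5 GTPases (Gbp2, Gbp3, Igtp and Irgm1). The GAS letters TTCNNNGAA, a palindrome that can overlap an ISRE core, were found for 7 of the 31 members (22.6%), against 9.55% of all genes and 8.30% of all promoters. A match is a description of letters and not a bound site.

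The 250 bases before the start are shown for 6 members that carry the results below, 5 with a core and Xaf1 without, with the core in capitals and each read in the direction of its gene. Isg15 (chr4:156200819-156201068, minus strand) holds 3 overlapping cores, Rsad2 (chr12:26456453-26456702, minus strand) 1, Stat2 (chr10:128270248-128270497, plus strand) 1, Ifit3 (chr19:34583279-34583528, plus strand) 2 and Igtp (chr11:58199306-58199555, plus strand) 1. Xaf1 (chr11:72301379-72301628, plus strand) holds none in this window.
Isg15: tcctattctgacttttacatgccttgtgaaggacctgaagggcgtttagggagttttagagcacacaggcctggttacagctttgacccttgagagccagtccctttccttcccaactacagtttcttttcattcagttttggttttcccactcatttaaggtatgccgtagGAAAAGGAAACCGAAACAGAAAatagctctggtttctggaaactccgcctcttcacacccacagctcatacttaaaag
Rsad2: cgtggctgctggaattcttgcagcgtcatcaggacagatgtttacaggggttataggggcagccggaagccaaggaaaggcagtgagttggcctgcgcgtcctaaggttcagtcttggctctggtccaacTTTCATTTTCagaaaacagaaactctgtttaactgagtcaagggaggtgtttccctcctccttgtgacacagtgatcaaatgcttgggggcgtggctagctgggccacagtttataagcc
Stat2: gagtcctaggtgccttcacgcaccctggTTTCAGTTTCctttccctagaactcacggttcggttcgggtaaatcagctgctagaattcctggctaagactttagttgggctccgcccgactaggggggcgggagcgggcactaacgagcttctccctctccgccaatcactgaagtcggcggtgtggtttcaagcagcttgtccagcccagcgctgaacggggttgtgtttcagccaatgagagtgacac
Ifit3: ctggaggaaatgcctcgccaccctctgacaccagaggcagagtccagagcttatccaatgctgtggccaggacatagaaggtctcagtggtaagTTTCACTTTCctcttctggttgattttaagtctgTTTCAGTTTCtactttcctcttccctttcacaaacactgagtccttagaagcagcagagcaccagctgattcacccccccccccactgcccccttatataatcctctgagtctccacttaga
Igtp: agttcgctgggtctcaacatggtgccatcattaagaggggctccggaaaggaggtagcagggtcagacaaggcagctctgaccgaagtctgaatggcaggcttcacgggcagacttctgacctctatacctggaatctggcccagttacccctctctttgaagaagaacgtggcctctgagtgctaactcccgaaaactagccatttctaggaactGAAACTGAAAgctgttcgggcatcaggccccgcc
Xaf1: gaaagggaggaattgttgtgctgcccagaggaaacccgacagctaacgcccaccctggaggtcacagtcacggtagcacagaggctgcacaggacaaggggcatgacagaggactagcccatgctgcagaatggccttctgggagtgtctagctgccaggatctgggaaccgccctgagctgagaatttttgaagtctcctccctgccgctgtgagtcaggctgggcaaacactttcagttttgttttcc
In mm10, annotated by GENCODE M21, all members but Mx2, a polymorphic pseudogene, are protein-coding. Of the 41, 16 overlap another annotated gene (Igtp overlaps Irgm2 on the same strand and Cxcl10 lies within Art3 on the other), and the strand setting of the counting is not given in the sources used here. Ifit3 and Ifit3b are near-identical neighbours on chromosome 19, and Oas and Gbp genes also have close copies, so single values of these genes are uncertain.

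The genes that could start the response gave few counts. The 18 type I interferon genes of the pathway list summed to 299 counts over all 39 libraries and to at most 8.43 CPM in any library (DTR day 14). WT day 7, WT day 14 and DTR day 14 held 61, 58 and 54 of these counts, and DTR day 7 and PBS held 0. Olfactory and vomeronasal receptor genes, which muscle hardly expresses, summed to 1439 to 1997 CPM at DTR day 14. They summed to 146 and 92.1 CPM at DTR day 7 and to 12.05 and 14.6 CPM with PBS. The part of this background in the ligand counts was not tested. Ifnb1, the gene of interferon-beta, had 8 counts in all. Ifng, the gene of interferon-gamma, had 72 of its 75 counts in the Vγ6 cells of colon. In whole muscle of WT at day 3, where most members were highest, the type I ligands had 14 counts and Ifng had 0, which allows up to 0.210 CPM (3 counts of the group's total), counting error only.

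Every group held counts of all 41 members, but at very different levels. The mean over a group's libraries reached 5 CPM for 41 members in WT muscle at day 3 and in DTR muscle at day 3, for 35 in each Vγ6 group, for 25 in WT muscle at day 14 and for 18 in WT satellite cells. Ifi27l2a, an interferon-induced membrane protein, led in whole muscle at day 3 with 364 ± 77.95 CPM (SD, n = 3) in WT and 310.1 ± 38.4 CPM (SD, n = 3) in DTR. Vγ6 cells were led by Lgals3bp, a secreted glycoprotein, with 977 ± 90.8 CPM (SD, n = 3) in muscle and 360.5 ± 29.5 CPM (SD, n = 3) in colon. Satellite cells were led by Gbp2, with 50.2 ± 12.6 CPM (SD, n = 3) in WT and 86.4 ± 26.5 CPM (SD, n = 3) in DTR. CPM is not divided by transcript length, so these leaders are those with most counts and levels of different genes are not compared.

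**Figure D1:**
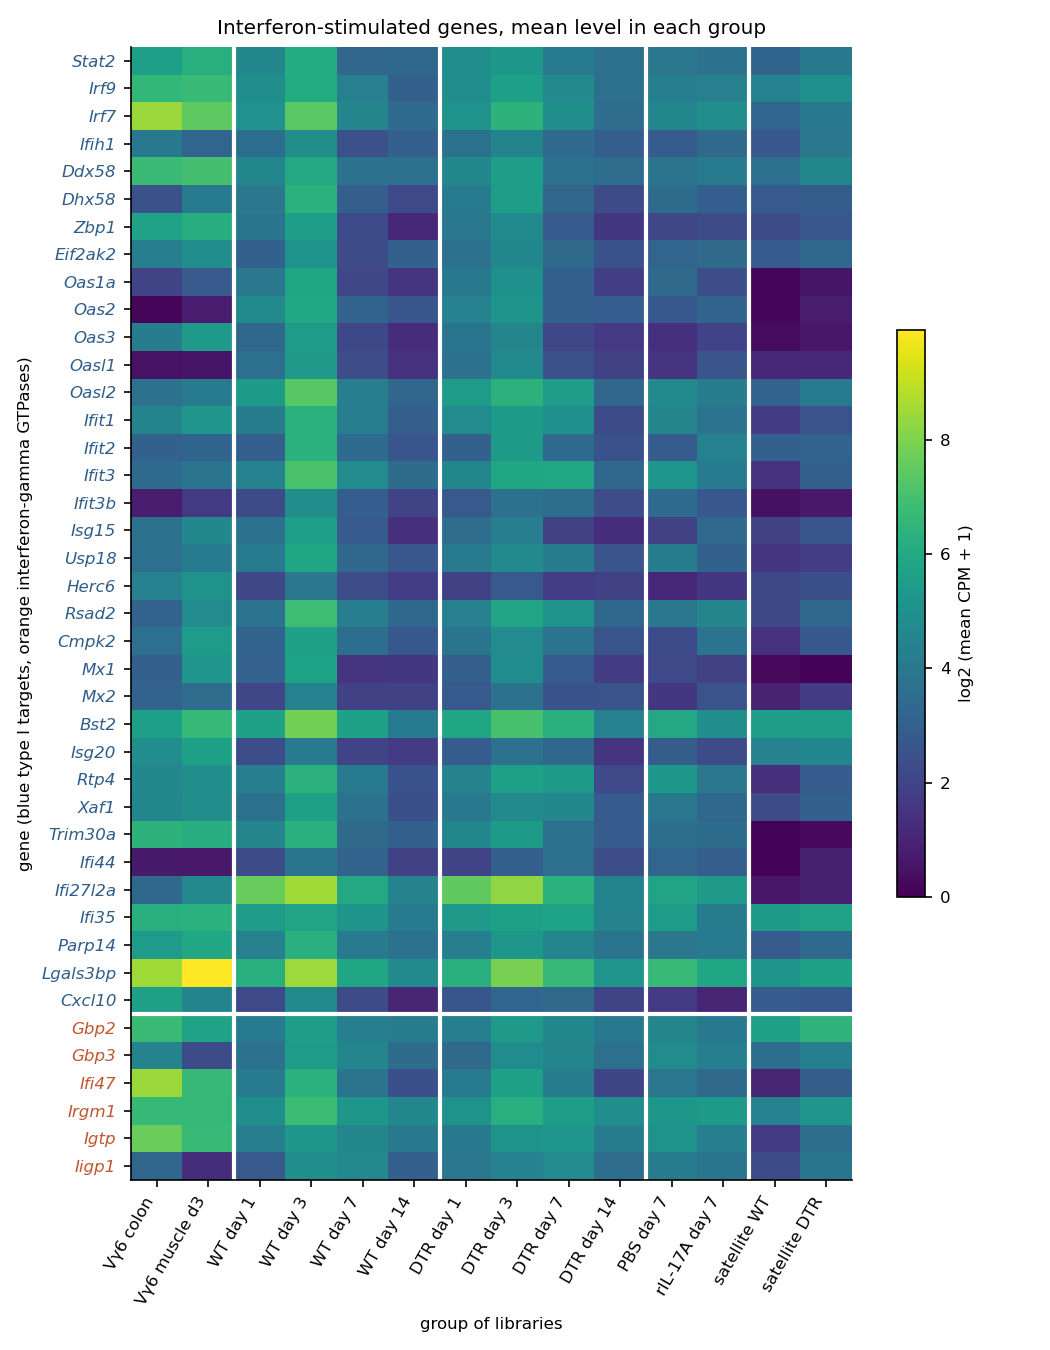
Mean level of each of the 41 members (rows, blue names for type I targets and orange for GTPases) in each of the 14 groups (columns) as log2 of the mean CPM plus 1. The 2 columns of muscle at day 3 are brightest among whole muscle, with all 41 members at 5 CPM or more in each.

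In wild-type muscle 37 of 41 members rose from day 1 to day 3, and 34 fell from day 3 to day 7. All 41 changed over time in WT (edgeR's quasi-likelihood F-test, Benjamini-Hochberg adjusted p under 0.05, the threshold used throughout), against 53.7% of all 18264 genes tested. In DTR muscle 39 of 41 did, all but Herc6 and Mx2, against 56.2% of all genes. The day of the highest mean CPM was day 3 for all 41 members in WT and for 35 in DTR, and the other 6 members in DTR peaked at day 7. Type I targets summed to 666 to 911 CPM per library at day 1 of WT, 2411 to 3330 CPM at day 3, 433 to 553 CPM at day 7 and 232 to 251 CPM at day 14. In DTR the sums were 436 to 1501 CPM at day 1, 1535 to 2161 CPM at day 3, 650 and 980 CPM at day 7 and 240 to 341 CPM at day 14. The WT and DTR libraries do not overlap in this sum at day 3 (DTR lower) and at day 7 (DTR higher).

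**Figure D2:**
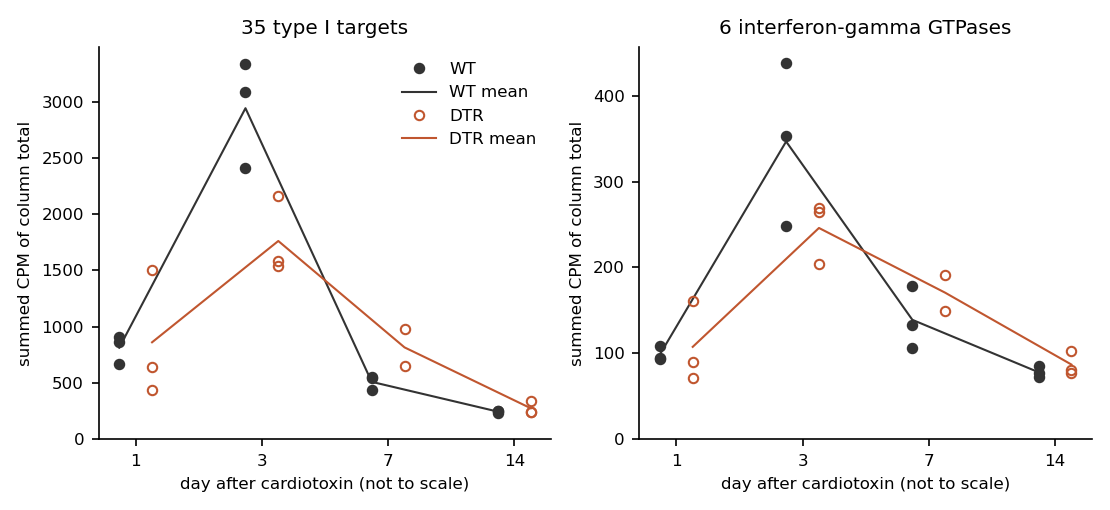
Summed CPM of the 35 type I targets (left) and the 6 GTPases (right) in each library of whole muscle by day, with the mean of each genotype as a line. Type I sums of WT at day 3 lie at 2411 to 3330 CPM, above the 1535 to 2161 CPM of DTR, and at day 7 the 650 and 980 CPM of DTR lie above the 433 to 553 CPM of WT.

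Sums of cell type markers changed over the same days, and not all of them peaked at day 3. In WT the mean sums at days 1, 3, 7 and 14 were 380, 726, 242 and 189 CPM for satellite cell genes. For genes of fibro-adipogenic progenitors they were 1880, 2528, 1828 and 959 CPM. Myofibre genes went the other way, at 101312, 38643, 113161 and 137759 CPM. The 8 macrophage genes summed to 928 to 2311 CPM at day 1 of WT, 6915 to 11781 CPM at day 3, 318 to 524 CPM at day 7 and 106 to 128 CPM at day 14. In DTR they summed to 817 to 2096, 6414 to 7822, 315 and 1266, and 96.2 to 237 CPM at the same days. Siglech, a defining gene of plasmacytoid dendritic cells, stayed at or below 3.69 CPM in every whole-muscle library of the time course. Fewer cells of a type and less RNA per cell cannot be told apart in whole muscle. The part of these marker changes in the members' changes was not tested.

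From day 1 to day 3 of WT, 37 of 41 members rose (90.2%) and none fell, against 9.58% of all genes rising and 9.36% falling. The exceptions were Oas3, Ifi27l2a, Ifi35 and Igtp. The median log2 change (on the TMM scale, which sets most genes to no change) was 1.60, against 0.00 for all genes, and 1 member, Ifi35, lay below 0, at −0.02. In CPM every day 3 library lay above every day 1 library for all 41 members, as it did for 31.7% of all genes (8.94% lay below), and with library size as the only scale the median of all genes in this step was 0.40. By role, all 3 transcription factors, all 5 sensors, 4 of 5 OAS genes, all 4 Ifit genes, all 3 genes of the ISG15 system, 12 of 14 antiviral effectors, Cxcl10 and 5 of 6 GTPases rose.

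Among the transcription factors, Irf7, the master factor of the type I response, stood at 23.7, 36.5 and 34.7 CPM at day 1 and 181, 196 and 119 CPM at day 3 of WT (log2 change 1.98 ± 0.30 SE, adjusted p = 1.26e-05). Every day 3 library lay above every day 1 library, and by day 7 it lay below every day 1 library, at 22.04, 23.5 and 19.5 CPM (log2 change −2.12 ± 0.30 SE, adjusted p = 1.24e-06). Of all members Irf7 also followed the other 40 most closely over the 23 time-course libraries, with a Pearson correlation of 0.982 of its log2 CPM with their mean z-score, given as a description. Stat2, a part of the ISRE-binding complex, went from 20.98, 27.4 and 21.4 CPM through 74.6, 86.8 and 50.6 CPM to 10.5, 8.49 and 7.39 CPM at days 1, 3 and 7. It fell after day 3 to below every day 1 library (log2 change −2.19 ± 0.29 SE, adjusted p = 1.05e-07). Irf9, the DNA-binding part of that complex, fell further between day 7 at 26.6, 17.5 and 13.1 CPM and day 14 at 8.01, 7.36 and 6.68 CPM (log2 change −1.53 ± 0.31 SE, adjusted p = 6.17e-04).

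The sensors recognise foreign or displaced nucleic acid. Eif2ak2, the kinase PKR that binds double-stranded RNA, stood at 32.5, 36.2 and 27.9 CPM at day 3 and 4.12, 4.51 and 2.905 CPM at day 7 of WT (log2 change −2.24 ± 0.33 SE, adjusted p = 9.43e-07). Zbp1, a sensor of left-handed nucleic acid, fell in the same step from 53.1, 48.9 and 34.1 CPM to 3.56, 4.73 and 2.77 CPM (log2 change −2.80 ± 0.38 SE, adjusted p = 2.07e-07). The groups do not overlap for either gene.

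The OAS genes make 2-5A, the messenger that activates RNase L. Oas1a showed the smallest p among members both over time in WT (adjusted p = 1.66e-11) and in the step from day 3 to day 7. It went from 10.4, 19.5 and 14.99 CPM at day 1 to 59.8, 61.4 and 50.3 CPM at day 3 and 3.41, 2.47 and 3.96 CPM at day 7 (log2 change −3.34 ± 0.37 SE, adjusted p = 3.93e-09). Oas2 fell from 63.8, 74.1 and 44.1 CPM to 6.68, 8.81 and 8.45 CPM over the same days (log2 change −2.13 ± 0.30 SE, adjusted p = 5.12e-07). Both ended below every day 1 library.

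Ifit proteins bind viral RNA ends. Ifit1 stood at 8.57, 27.4 and 16.03 CPM at day 1, 64.7, 119 and 55.9 CPM at day 3 and 23.3, 19.7 and 11.6 CPM at day 7 of WT, and both steps passed the test (log2 change 1.80 ± 0.49 SE, adjusted p = 0.0128; log2 change −1.29 ± 0.48 SE, adjusted p = 0.0397). Every day 3 library lies above every library of the other days. Isg15, the ubiquitin-like modifier, stood at 11.7, 13.4 and 11.7, then 37.1, 62.4 and 44.4 and then 6.68, 6.55 and 5.41 CPM at days 1, 3 and 7 (log2 change 1.56 ± 0.41 SE, adjusted p = 0.00499 for the rise).

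The 3 smallest p-values of the rise from day 1 to day 3 belonged to antiviral effectors. Rsad2, the radical SAM enzyme viperin, went from 7.67, 16.2 and 14.99 CPM at day 1 to 98.4, 145 and 99.2 CPM at day 3 of WT (log2 change 2.73 ± 0.30 SE, adjusted p = 1.14e-08). Bst2, the tetherin that holds virus particles at the cell surface, went from 44.4, 57.5 and 48.4 CPM to 224, 242 and 223 CPM (log2 change 1.80 ± 0.25 SE, adjusted p = 2.21e-06). Lgals3bp rose from 62.7, 85.8 and 74.1 CPM to 455, 348 and 266 CPM (log2 change 1.87 ± 0.27 SE, adjusted p = 5.41e-06). Rtp4, a receptor transporter induced by interferon, rose from 12.9, 21.9 and 18.6 CPM to 91.04, 94.97 and 61.5 CPM (log2 change 1.81 ± 0.30 SE, adjusted p = 3.13e-05). For all 4 genes the lowest day 3 library lay above the highest day 1 library.

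Cxcl10, the chemokine that draws CXCR3-bearing T and NK cells, was low throughout, at 4.06, 3.65 and 2.96 CPM at day 1 and 15.2, 45.3 and 18.4 CPM at day 3 of WT (log2 change 2.47 ± 0.51 SE, adjusted p = 5.08e-04). Every day 3 library lay above every day 1 library. The GTPases, which attack the vacuoles of intracellular microbes, rose too. Irgm1 went from 31.6, 33.4 and 25.6 CPM to 103, 138 and 88.3 CPM (log2 change 1.46 ± 0.26 SE, adjusted p = 5.74e-05). Gbp2 went from 19.4, 17.4 and 13.4 CPM to 51.1, 52.8 and 35.5 CPM (log2 change 1.07 ± 0.28 SE, adjusted p = 0.00519).

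From day 3 to day 7 of WT, 34 of 41 members fell (82.9%) and none rose, against 19% of all genes falling and 17.9% rising. The median log2 change was −1.78, against 0.04 for all genes, and 4 members lay above 0. In CPM, every day 7 library lay below every day 3 library for 39 of 41 members, all but Gbp3 and Iigp1, and for 43% of all genes. No member lay above in this sense, against 9.06% of all genes. By class, 32 of 35 type I targets fell, with a median of −1.86, and 2 of 6 GTPases (Ifi47 and Irgm1), with a median of −0.28. The difference between the classes was not tested. Type I targets kept a median of 15.8% of their day 3 CPM at day 7 and GTPases 46.5%. Iigp1, an IRG GTPase, stood at 25.2, 47.5 and 16.8 CPM at day 3 and 34.3, 22.2 and 17.8 CPM at day 7, and its groups overlap. Gbp2 stood at 22.5, 20.1 and 12.8 CPM at day 7 (log2 change −0.50 ± 0.27 SE, adjusted p = 0.155). Scaling by library size alone moved the median of all genes in this step to −0.74 and called 38 members lower.

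From day 7 to day 14 of WT, 18 of 41 members fell (43.9%) and none rose, against 13.2% of all genes falling and 4.14% rising, with a median log2 change of −1.17. Bst2 fell from 45.9, 69.3 and 34.99 CPM to 13.01, 19.1 and 16.4 CPM (log2 change −1.78 ± 0.27 SE, adjusted p = 1.77e-05). Rtp4 went from 21.05, 16.2 and 12.5 CPM to 3.75, 5.18 and 5.16 CPM (log2 change −1.98 ± 0.36 SE, adjusted p = 1.58e-04). Iigp1 now fell as well, to 9.26, 6.81 and 5.77 CPM (log2 change −1.92 ± 0.36 SE, adjusted p = 2.71e-04). Ifi35, an interferon-induced leucine zipper protein, and Xaf1, a partner of the apoptosis inhibitor XIAP, fell here too. Ifi35 went from 48.8, 32.9 and 22.4 CPM to 14.5, 16.1 and 18.2 CPM (log2 change −1.26 ± 0.26 SE, adjusted p = 7.00e-04). Xaf1 went from 14.6, 12.1 and 9.77 CPM to 4.25, 4.63 and 4.25 CPM (log2 change −1.62 ± 0.34 SE, adjusted p = 7.67e-04). The count was 9 without WT day 14 replicate 1, 11 without replicate 3 of that group and 11 with library size alone as the scale. Olfactory and vomeronasal receptor genes summed to 267, 543 and 1383 CPM at day 7 of WT and to 1578, 1626 and 1844 CPM at day 14. The part of this background in the step was not tested.

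In DTR muscle, from day 1 to day 3, 13 of 41 members rose (31.7%) and none fell, against 8.48% of all genes rising and 5.85% falling. All 41 had a log2 change above 0, with a median of 0.86. By class, 8 of 35 type I targets and 5 of 6 GTPases rose. Lgals3bp went from 40.7, 117 and 69.4 CPM to 266, 223 and 229 CPM (log2 change 1.49 ± 0.27 SE, adjusted p = 1.51e-04). Rsad2 went from 10.9, 34.6 and 12.3 CPM to 66.96, 38.9 and 57.7 CPM (log2 change 1.37 ± 0.29 SE, adjusted p = 7.08e-04). Irf7 went from 13.99, 60.8 and 22.5 CPM to 116, 64.4 and 74.1 CPM (log2 change 1.27 ± 0.30 SE, adjusted p = 0.00319). Replicate 2 of day 1 is the highest of its group for all these genes, and it is the library that stood apart in genes detected.

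Bst2 in DTR went from 32.1, 104 and 38.8 CPM to 146, 123 and 121 CPM (log2 change 1.02 ± 0.25 SE, adjusted p = 0.00389). Ifi47, an IRG GTPase, went from 8.54, 25.1 and 13.6 CPM to 48.5, 54.3 and 45.6 CPM (log2 change 1.49 ± 0.34 SE, adjusted p = 0.00178). Ifit2, another Ifit protein, rose most among the members named here, from 5.09, 11.4 and 5.297 CPM to 61.7, 31.5 and 31.8 CPM (log2 change 2.35 ± 0.56 SE, adjusted p = 0.00631). Isg15, at 4.54, 22.5 and 5.49 CPM and 25.5, 13.2 and 15.3 CPM, did not pass (adjusted p = 0.329), and its groups overlap. Ifit1 (8.54, 54.5 and 16.3 against 49.2, 30.6 and 46.1 CPM), Cxcl10 (1.998, 11.6 and 2.27 against 14.7, 5.72 and 5.15 CPM), Gbp2 (14.2, 26.7 and 14.8 against 44.8, 50.4 and 26.2 CPM) and Iigp1 (7.63, 21.4 and 13.8 against 20.2, 23.8 and 16.1 CPM) overlapped as well, day 1 before day 3 in each, and of these Gbp2 passed (log2 change 0.93 ± 0.28 SE, adjusted p = 0.0198). The count of members that rose was 28 without DTR day 1 replicate 2, 6 without replicate 1 of that group and 8 without DTR day 3 replicate 1.

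From day 3 to day 7 of DTR the shares of members that rose and fell on the TMM scale were not above those of all genes. There 5 rose (12.2%) and 7 fell (17.1%), against 17.1% of all genes rising and 18.4% falling. With library size as the only scale 0 rose and 22 fell, and none of the 12 calls held under every alternative run. In CPM, which is not scaled for the makeup of the library, both day 7 libraries lay below all day 3 libraries for 28 of 41 members and for 56.7% of all genes, and above them for no member and 9.17% of all genes. The median log2 change was −0.08, and the median of all genes was −0.22. The 7 that fell were Oas2, Isg15, Dhx58, Oasl1, Oas1a, Zbp1 and Ddx58, all type I targets. Isg15 went from 25.5, 13.2 and 15.3 CPM to 2.199 and 3.37 CPM (log2 change −1.70 ± 0.50 SE, adjusted p = 0.00723). Oas2 went from 36.2, 41.6 and 25.8 CPM to 5.76 and 9.39 CPM (log2 change −1.20 ± 0.34 SE, adjusted p = 0.00528). Dhx58, the sensor LGP2, went from 51.2, 45.1 and 39.9 CPM to 6.28 and 11.2 CPM (log2 change −1.40 ± 0.45 SE, adjusted p = 0.0154).

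The 5 that rose on the TMM scale were Ifi35, Iigp1, Igtp, Ifi44 and Xaf1, and their libraries overlap in CPM. Igtp, an IRG GTPase, stood at 37.8, 32.3 and 30.9 CPM at day 3 and 25.9 and 46.9 CPM at day 7 (log2 change 1.08 ± 0.29 SE, adjusted p = 0.00388). Ifi35 stood at 55.3, 41.1 and 49.4 CPM and 48.8 and 56.6 CPM (log2 change 1.10 ± 0.27 SE, adjusted p = 0.00123). Iigp1 stood at 20.2, 23.8 and 16.1 CPM and 21.1 and 32.6 CPM (log2 change 1.40 ± 0.36 SE, adjusted p = 0.00229). With library size alone as the scale the median of all genes was −1.20, Xaf1 turned to −0.18 and Gbp2 to −0.80 (log2). Without DTR day 7 replicate 1, and likewise without replicate 2, 5 members passed.

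From day 7 to day 14 of DTR, 32 of 41 members fell (78.0%) and none rose, against 19.7% of all genes falling and 14.6% rising, with a median log2 change of −1.73. All 6 GTPases and 26 of 35 type I targets fell. The count of 32 was 28 with the size factors of DESeq2 and 22 with library size alone as the scale. Olfactory and vomeronasal receptor genes summed to 146 and 92.1 CPM at day 7 of DTR and to 1997, 1709 and 1439 CPM at day 14. The part of this background in the falls was not tested. Rtp4 fell most by p, from 34.4 and 49.9 CPM to 1.75, 5.48 and 3.49 CPM (log2 change −3.94 ± 0.39 SE, adjusted p = 1.34e-08). Rsad2 fell from 31.2 and 35.3 CPM to 9.09, 12.6 and 5.54 CPM (log2 change −2.31 ± 0.34 SE, adjusted p = 3.43e-06). Bst2 went from 59.5 and 94.9 CPM to 20.3, 18.97 and 20.3 CPM (log2 change −2.32 ± 0.29 SE, adjusted p = 3.69e-07). Ifi47 fell from 11.6 and 22.8 CPM to 5.596, 2.11 and 1.85 CPM (log2 change −2.85 ± 0.44 SE, adjusted p = 1.03e-05). Xaf1 went from 17.7 and 28.8 CPM to 5.95, 7.59 and 5.74 CPM (log2 change −2.23 ± 0.35 SE, adjusted p = 8.78e-06). For these 5 genes each day 7 library lay above every day 14 library. By day 14 Irf7 stood at 7.69, 14.3 and 10.3 CPM, Ifit1 at 2.098, 7.17 and 2.67 CPM and Isg15 at 1.05, 2.95 and 0.41 CPM in DTR, beside the 7.25, 12.5 and 10.3 CPM, 7.004, 8.72 and 5.16 CPM and 3.25, 0.545 and 0.911 CPM of WT. The GTPases Gbp2 and Iigp1 stood at 15.7, 18.97 and 10.3 CPM and 16.8, 8.43 and 6.97 CPM in DTR and at 21.8, 13.4 and 17.3 CPM and 9.26, 6.81 and 5.77 CPM in WT.

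The comparison of DTR with WT at each day was meant to ask what the loss of γδ T cells changed. Sums of the γδ T cell genes lay apart only at day 3. At day 1 they overlapped, at 9.555 to 11.96 CPM in WT and 7.08 to 15.9 CPM in DTR. They overlapped too at day 7 (3.76 to 11.8 and 3.74 to 6.70 CPM) and day 14 (6.81 to 14.3 and 5.06 to 10.8 CPM). At days 1 and 7 most of each sum was Sox13, a gene that the satellite cell libraries also held. At day 1 it had 43, 49 and 38 counts in WT and 36, 50 and 45 in DTR. The overlap of the sums therefore says little about γδ T cells. A loss at days 1, 7 and 14 is not shown by these few counts of whole muscle. At day 1 none of the 41 members was called, nor was any other gene (0%), and 2 members had an unadjusted p under 0.05, beside 4.25% of all genes. DESeq2 called 0 members at day 1. Iigp1 had the smallest p, at 4.96, 5.39 and 7.32 CPM in WT and 7.63, 21.4 and 13.8 CPM in DTR (log2 change 1.07 ± 0.37 SE, adjusted p = 0.998). Oas2 stood at 22.6, 24.1 and 31.4 CPM in WT and 12.7, 33.05 and 14.2 CPM in DTR, and Igtp at 18.9, 17.2 and 18.1 against 10.9, 26.2 and 8.701 CPM. For both genes 2 DTR libraries lay below all WT libraries, and replicate 2, the library that stood apart, above them.

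At day 3 all 41 members had a log2 change below 0 in DTR, with a median of −0.79, against −0.01 for all genes and 48.6% of all genes above 0. None passed the test, nor did any of the 18264 genes (0%), DESeq2 called 0 members, and 23 members had an unadjusted p under 0.05, against 4.78% of all genes. In 28 of 41 members every DTR library lay below every WT library, against 5.78% of all genes, and for no member did every DTR library lie above, against 4.38%. The 41 genes move together within a library and are not 41 separate tests. Of 13 sets of cell type markers, 4 did not overlap between the genotypes at day 3, all lower in DTR. Beside the γδ T cell genes these were the genes of NK cells (4.47 to 6.77 CPM in WT and 0.909 to 3.95 CPM in DTR), the set named αβ T cells (8.92 to 12.6 and 2.88 to 7.04 CPM) and satellite cells (689 to 746 and 512 to 646 CPM). The αβ set holds Cd3e and Cd3g and summed to 1840 to 3007 CPM in Vγ6 cells, so it does not tell αβ from γδ T cells. Macrophage sums (6915 to 11781 and 6414 to 7822 CPM) and the sum of 5 myofibre genes (18981 to 58388 and 43337 to 57331 CPM) overlapped. The part of these markers in the difference was not tested.

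Rsad2 had the smallest p at day 3, with 98.4, 145 and 99.2 CPM in WT and 66.96, 38.9 and 57.7 CPM in DTR (log2 change −1.03 ± 0.27 SE, adjusted p = 0.437). Usp18, the protease that removes Isg15 and damps the receptor, stood at 48.3, 63.1 and 56.7 CPM and 31.6, 24.2 and 21.2 CPM (log2 change −1.10 ± 0.31 SE, adjusted p = 0.449). Isg15 stood at 37.1, 62.4 and 44.4 CPM and 25.5, 13.2 and 15.3 CPM (log2 change −1.38 ± 0.40 SE, adjusted p = 0.462). For all 3 genes the DTR libraries lay below the WT libraries. By class the median log2 change was −0.87 in type I targets and −0.52 in GTPases, and Gbp2 was close to even at 51.1, 52.8 and 35.5 CPM and 44.8, 50.4 and 26.2 CPM (log2 change −0.17 ± 0.27 SE). Irf7 stood at 181, 196 and 119 against 116, 64.4 and 74.1 CPM, Ifit1 at 64.7, 119 and 55.9 against 49.2, 30.6 and 46.1 CPM, and Cxcl10 at 15.2, 45.3 and 18.4 against 14.7, 5.72 and 5.15 CPM, in WT and DTR in that order.

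At day 7 the direction was the opposite. In DTR 7 of 41 members were higher (17.1%) and none lower, against 0.641% of all genes higher and 1.37% lower, and 39 of 41 had a log2 change above 0, against 48.5% of all genes, with a median of 0.79. All 7 are type I targets: the transcription factor Stat2, the sensors Eif2ak2 and Ifih1, the OAS gene Oas1a and the effectors Rtp4, Isg20 and Rsad2. The 2 members below 0 were Isg15 and Herc6, both of the ISG15 system.

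Rtp4 stood at 21.05, 16.2 and 12.5 CPM in WT and 34.4 and 49.9 CPM in DTR (log2 change 1.53 ± 0.32 SE, adjusted p = 0.00777). Eif2ak2 stood at 4.12, 4.51 and 2.905 CPM and 10.5 and 8.93 CPM (log2 change 1.55 ± 0.36 SE, adjusted p = 0.0163). Isg20, an exonuclease that degrades RNA, stood at 3.98, 3.65 and 1.72 CPM and 8.48 and 9.93 CPM (log2 change 1.75 ± 0.40 SE, adjusted p = 0.0168). Both DTR libraries lay above all 3 WT libraries for each of these genes.

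Ifih1, the RNA sensor MDA5, stood at 4.27, 5.69 and 3.43 CPM in WT and 10.4 and 9.84 CPM in DTR (log2 change 1.39 ± 0.37 SE, adjusted p = 0.037). Stat2 stood at 10.5, 8.49 and 7.39 CPM and 17.1 and 16.3 CPM (log2 change 1.14 ± 0.31 SE, adjusted p = 0.0421). Rsad2 stood at 18.9, 16.9 and 18.5 CPM and 31.2 and 35.3 CPM (log2 change 1.10 ± 0.30 SE, adjusted p = 0.0463). Oas1a, at 3.41, 2.47 and 3.96 CPM and 6.39 and 8.56 CPM, passed narrowly (adjusted p = 0.04998 against the threshold of 0.05). The libraries do not overlap for these 4 genes either.

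Isg15 lay the other way at day 7, at 6.68, 6.55 and 5.41 CPM in WT and 2.199 and 3.37 CPM in DTR (log2 change −0.95 ± 0.50 SE, adjusted p = 0.273). Its DTR libraries lay below the WT libraries. Irf7 (22.04, 23.5 and 19.5 CPM and 25.97 and 33.7 CPM, WT and DTR), Ifit1 (23.3, 19.7 and 11.6 against 25.03 and 36.3 CPM) and Cxcl10 (3.41, 5.59 and 2.51 against 6.598 and 13.1 CPM) lay higher in DTR without overlap and did not pass. Of the GTPases, Gbp2 stood at 23.6 and 23.1 CPM in DTR and Iigp1 at 21.1 and 32.6 CPM, and none of the 6 passed.

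These calls rest on few libraries. Without WT replicate 3, and likewise without DTR replicate 2, 0 members passed at day 7, without DTR replicate 1 there were 3, and without WT replicate 1 there were 11. The fit of day 7 alone called 2 and library size alone as the scale called 3. WT replicate 3 stood apart at day 7 with 34392 genes detected, against 21496 to 27437 in the other day 7 libraries of the time course. Olfactory and vomeronasal receptor genes, which muscle hardly expresses, summed to 1383 CPM in it. They summed to 267 and 543 CPM in WT replicates 1 and 2 and to 146 and 92.1 CPM in DTR. Every WT library thus lay above both DTR libraries, and the part of this background in the day 7 calls was not tested. Macrophage genes summed to 315 CPM in DTR replicate 1 and 1266 CPM in DTR replicate 2, against 318 to 524 CPM in WT. Satellite cell genes summed to 232 to 257 CPM in WT and 160 and 212 CPM in DTR, and NK cell genes to 2.69 to 5.28 and 2.20 to 2.46 CPM. The defining satellite cell genes overlapped. Pax7 stood at 3.56, 4.51 and 2.64 CPM in WT and 6.18 and 3.83 CPM in DTR. Myod1 stood at 47.8, 59.3 and 48.5 CPM in WT and 39.7 and 61.9 CPM in DTR. The part of these markers in the day 7 difference was not tested.

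At day 14 no member was called, against 0.0767% of all genes, and 2 members had an unadjusted p under 0.05, beside 5.72% of all genes. DESeq2 called 0 members there and gave no adjusted p for 13 of the 41. The smallest p belonged to Cxcl10, at 1.501, 0.818 and 0.911 CPM in WT and 5.25, 2.11 and 2.05 CPM in DTR. Irf9 stood at 8.01, 7.36 and 6.68 against 5.95, 13.1 and 15.8 CPM and Eif2ak2 at 10.01, 3.82 and 7.89 against 5.95, 4.64 and 3.49 CPM, both with overlapping groups.

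**Figure D3:**
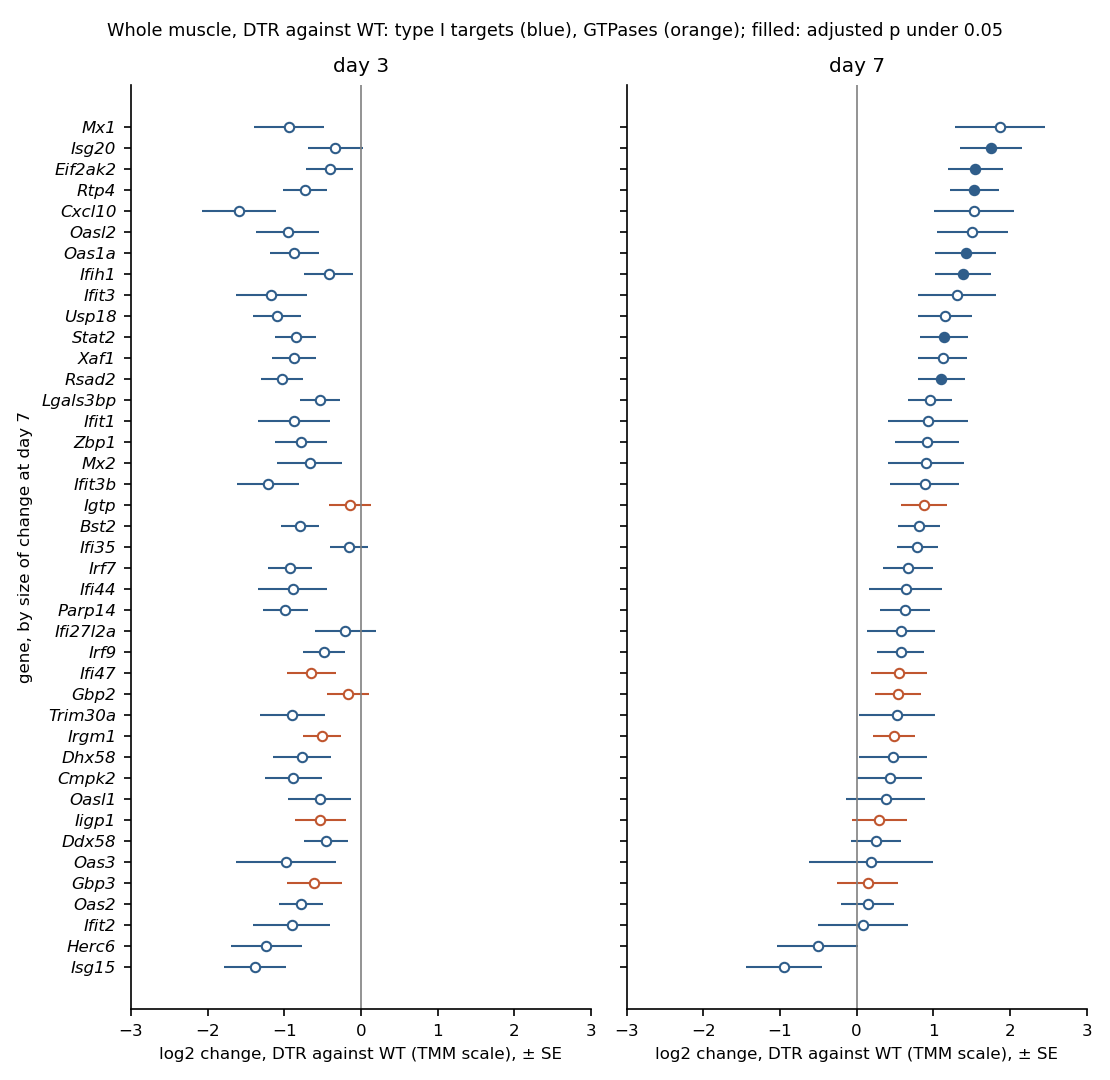
Log2 change of DTR against WT whole muscle for each of the 41 members at day 3 (left) and day 7 (right), with standard errors, filled where the adjusted p is under 0.05. All 41 points lie below 0 at day 3 and 39 of 41 above 0 at day 7, where 7 are filled.

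Whether the genotypes differed in their course over the days was tested directly. The interaction of genotype with time was called for 4 members (9.76%), against 0.608% of all genes: Rtp4 (adjusted p = 0.0278), Rsad2 (0.0302), Eif2ak2 (0.0465) and Stat2 (0.0477). A contrast chosen after the data were seen asked only whether the step from day 3 to day 7 differed. It called 9 members (22.0%) with the more positive step in DTR and none the other way, against 0.203% and 0.58% of all genes, and all 41 members were above 0, with a median of 1.53. The day 3 and day 7 differences share no libraries, but both enter this contrast.

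The 9 members were Rsad2, Rtp4, Stat2, Usp18, Xaf1, Oas1a, Cxcl10, Bst2 and Eif2ak2, all type I targets, and Rsad2 had a difference in step of 2.13 ± 0.41 SE (log2, adjusted p = 0.0102). In plain values, Rsad2 went from means of 114 to 18.1 CPM in WT between these days and from 54.5 to 33.2 CPM in DTR. The DTR level kept at day 7 was a median of 43.8% of day 3 over the type I targets, against 15.8% in WT. Leaving out 1 library at a time, the time interaction called 0 members without DTR day 3 replicate 2 or 3, WT day 7 replicate 3 or DTR day 7 replicate 2, 1 without WT day 3 replicate 2, and 8 and 13 without DTR day 1 replicates 1 and 2. It called 2 without any of the WT day 1 libraries, DTR day 1 replicate 3, WT day 7 replicate 2, WT day 14 replicate 1 or 3, or DTR day 14 replicate 2 or 3. The step contrast called 0 without DTR day 7 replicate 2, 4 without DTR day 3 replicate 2 or WT day 7 replicate 3, 5 without DTR day 3 replicate 3, and 16 without WT day 7 replicate 1.

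In Vγ6 T cells of injured muscle 12 type I targets were higher and 5 of 6 GTPases lower than in colon. Of 37 members tested, 12 were higher in muscle (32.4%) and 7 lower (18.9%), against 12.3% of all 11907 genes higher and 12.2% lower. All 12 that were higher are type I targets, and the 7 that were lower were 5 of the 6 GTPases, Irf7 and Cxcl10. The median log2 change was 0.47 over the 31 type I targets tested and −1.45 over the 6 GTPases. The 4 members not tested were Oas2, Oasl1, Ifit3b and Ifi44, which stood at 3.75 CPM or less in each Vγ6 library.

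Tissue, injury and sort all differ between these groups. The 8 macrophage genes summed to 974 to 1121 CPM in colon and 1530 to 1770 CPM in muscle, nearly all of it Ccr2, a chemokine receptor that T cells also use (967 to 1104 and 1524 to 1753 CPM). The defining Adgre1 was at 0 to 0.178 CPM in colon and 0.923 to 3.91 CPM in muscle, and Csf1r at most at 1.85 CPM. Lgals3bp was higher in muscle at 883, 984 and 1064 CPM, against 336, 393 and 353 CPM in colon (log2 change 1.41 ± 0.09 SE, adjusted p = 3.70e-08). Mx1, the dynamin-like antiviral GTPase, stood at 38.3, 23.8 and 42.4 CPM in muscle and 7.69, 10.3 and 3.57 CPM in colon (log2 change 2.24 ± 0.34 SE, adjusted p = 1.75e-04). Cmpk2, a mitochondrial nucleotide kinase, stood at 52.7, 40.3 and 39.8 CPM and 17.2, 10.6 and 6.42 CPM (log2 change 1.95 ± 0.29 SE, adjusted p = 1.33e-04). The groups do not overlap for these 3 genes.

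Rsad2, the neighbour of Cmpk2 on chromosome 12, stood at 26.6, 16.6 and 36.03 CPM in muscle and 6.92, 8.88 and 8.21 CPM in colon (log2 change 1.68 ± 0.30 SE, adjusted p = 7.83e-04). Bst2 stood at 93.4, 83.1 and 121 CPM and 46.6, 54.3 and 43.4 CPM (log2 change 1.01 ± 0.16 SE, adjusted p = 2.72e-04). The sensor Dhx58 stood at 12.9, 11.4 and 22.4 CPM and 4.61, 5.57 and 3.21 CPM (log2 change 1.76 ± 0.37 SE, adjusted p = 0.00249). Every muscle library lay above every colon library for these genes. Isg15 stood at 29.3, 15.3 and 27.3 CPM and 15.1, 13.2 and 6.78 CPM (log2 change 1.01 ± 0.32 SE, adjusted p = 0.033). Ifit1, at 48.9, 24.7 and 32.7 CPM and 16.4, 28.4 and 18.4 CPM, did not pass (adjusted p = 0.0659), and none of the 3 Ifit genes tested did.

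The GTPases went the other way. Ifi47 stood at 100.4, 92.7 and 108 CPM in muscle and 296, 366 and 371 CPM in colon (log2 change −1.81 ± 0.11 SE, adjusted p = 7.62e-09). Igtp stood at 105, 84.2 and 116 CPM and 228, 194 and 185 CPM (log2 change −1.02 ± 0.13 SE, adjusted p = 2.72e-05). Gbp2 stood at 69.3, 42.3 and 42.8 CPM and 117, 105 and 101 CPM (log2 change −1.09 ± 0.17 SE, adjusted p = 2.43e-04). Gbp3, a further guanylate-binding protein, stood at 3.59, 2.58 and 5.15 CPM and 19.2, 30.8 and 13.02 CPM (log2 change −2.51 ± 0.38 SE, adjusted p = 1.90e-04). These 4 genes show no overlap between tissues, whereas Iigp1, at 0.815, 0.923 and 2.57 CPM and 12.6, 11.3 and 2.32 CPM (log2 change −2.63 ± 0.66 SE, adjusted p = 0.0086), overlaps. Irgm1 was even, at 120.1, 73.3 and 101 CPM in muscle and 93.3, 98.4 and 105 CPM in colon.

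Cxcl10, a target of both interferon types, stood at 27.1, 15.9 and 20.99 CPM in muscle and 68.7, 47.7 and 32.8 CPM in colon (log2 change −1.24 ± 0.26 SE, adjusted p = 0.00252). Irf7 was lower in muscle too, at 175, 127 and 224 CPM against 381, 386 and 269 CPM (log2 change −1.01 ± 0.23 SE, adjusted p = 0.0153). The rest of the pathway split in the same comparison: of 58 genes tested from the pathway list 10 were higher (17.2%) and 26 lower (44.8%) in muscle. Ifng itself stood at 7.17, 2.96 and 4.82 CPM in colon and had 0 counts in muscle, which allows up to 0.181 CPM (adjusted p = 2.82e-04). Its receptor chain Ifngr1 stood at 938, 733 and 667 CPM in muscle and 3792, 3894 and 3473 CPM in colon (adjusted p = 8.13e-10). The type I receptor chain Ifnar1 was higher in muscle, at 203, 228 and 215 CPM against 148, 110.4 and 124 CPM (adjusted p = 2.16e-04).

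Irf1, an early target of interferon-gamma, stood at 132, 143 and 131 CPM in muscle and 372, 282 and 240.2 CPM in colon (adjusted p = 1.45e-05). The other pathway genes with the smallest p were all lower in muscle: H2-K1, a class I antigen-presenting molecule (log2 change −0.96), and Gbp8 and Gbp4, 2 further guanylate-binding proteins (−1.52 and −1.49). The 5 NK cell genes summed to 237 to 272 CPM in colon and 53.1 to 84.7 CPM in muscle, with Klrb1c at 99.4 to 168 and 0.739 to 1.98 CPM, and the defining Ncr1 and Eomes at or below 4.82 CPM. Of the 13 marker sets 9 did not overlap between these groups, 5 of them lower in muscle. The part of these markers in the members' differences was not tested. Of the 19 members called, 15 kept their call under every alternative run.

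**Figure D4:**
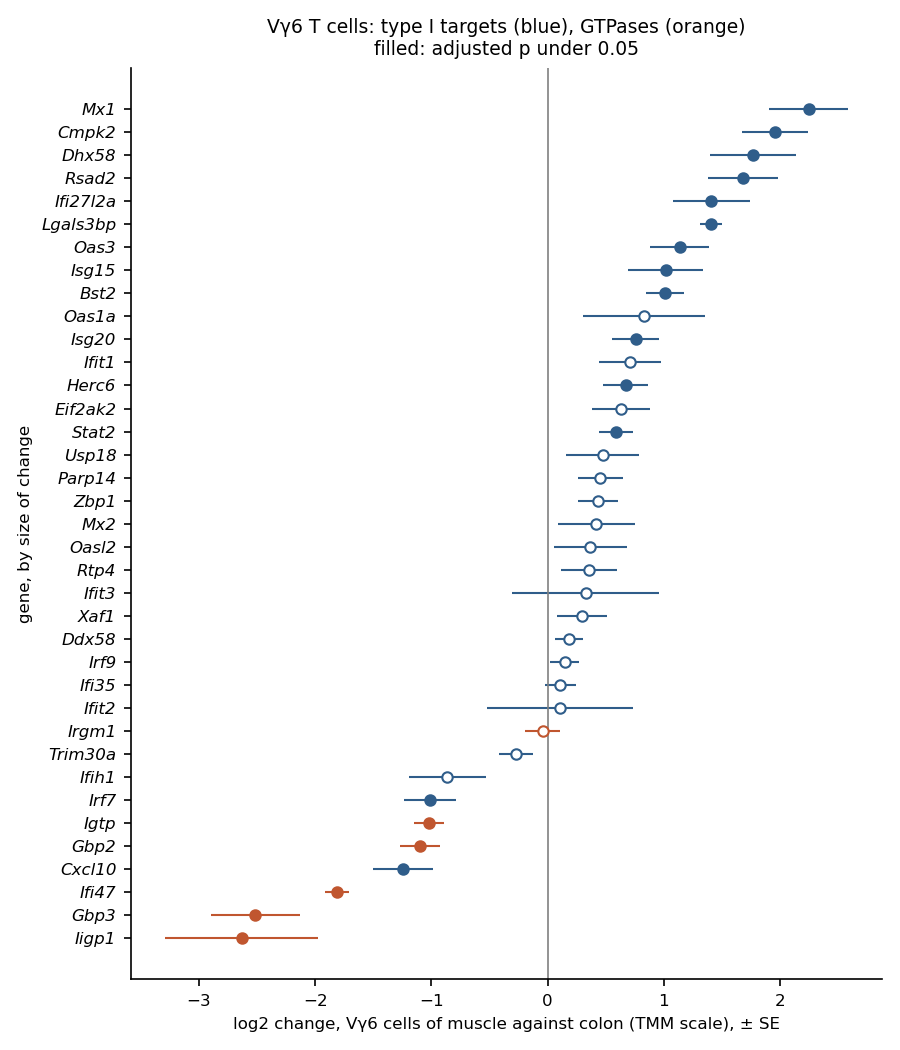
Log2 change of Vγ6 T cells of injured muscle against colon for the 37 members tested, with standard errors, filled where the adjusted p is under 0.05. The 6 GTPases (orange) all lie below 0 and 5 are filled, while 27 of 31 type I targets (blue) lie above 0.

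Satellite cells of DTR and WT were compared at day 1, when the γδ T cell sums of whole muscle overlapped. The satellite cell libraries themselves held 11, 14 and 6 counts of Trdc in WT and 0, 2 and 3 in DTR, and Trgc1 had 0 counts in each. Of the 29 members tested, none was called, nor was any of the 12081 genes (0%), but 28 of 29 had a log2 change above 0 in DTR, with a median of 0.80, against 0.02 for all genes. An unadjusted p under 0.05 was reached by 16 members, against 5.95% of all genes. These values all include DTR replicate 1, the library that held myofibre genes. The members move together within a library and are not separate tests. DESeq2 called 1 member (Igtp, adjusted p = 0.00975), beside 11 of all 12081 genes. Without a filter on low counts edgeR called 5 members (Igtp, Iigp1, Ifit3, Gbp2 and Ifih1), beside 101 of all 34171 genes. The DESeq2 and unfiltered counts also include DTR replicate 1 and were not repeated without it.

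Igtp had the smallest p, at 3.29, 1.15 and 2.19 CPM in WT and 15.97, 8.57 and 8.13 CPM in DTR (log2 change 2.27 ± 0.43 SE, adjusted p = 0.66). Rtp4 stood at 2.19, 0.956 and 1.39 CPM and 8.599, 5.65 and 4.15 CPM (log2 change 1.98 ± 0.46 SE, adjusted p = 0.699). Ddx58, the RNA sensor RIG-I, stood at 11.3, 13.4 and 9.16 CPM and 26.5, 18.2 and 22.2 CPM (log2 change 0.98 ± 0.24 SE, adjusted p = 0.747). The DTR libraries lay above the WT libraries for these 3 genes. Irf7 stood at 9.14, 7.26 and 8.57 against 16.7, 13.5 and 15.3 CPM and Gbp2 at 61.2, 36.5 and 52.99 against 115, 80.96 and 63.1 CPM, also without overlap. Isg15 (3.47, 2.87 and 2.19 against 9.13, 2.92 and 3.82 CPM), Ifit1 (4.39, 2.68 and 0.199 against 5.62, 7.29 and 1.33 CPM), Iigp1 (3.66, 5.93 and 2.19 against 25.8, 11.9 and 3.49 CPM) and Cxcl10 (6.399, 8.79 and 3.19 against 7.897, 4.01 and 5.15 CPM) overlapped, WT before DTR in each.

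Replicate 1 of DTR, the library with myofibre genes, was the highest of all 6 for Igtp, Rtp4, Ddx58, Irf7 and Gbp2. Without it the log2 change was 1.92 for Igtp, 1.69 for Rtp4 and 0.87 for Ddx58. The type I targets summed to 258 to 268 CPM in WT, to 358 and 321 CPM in DTR replicates 2 and 3 and to 488 CPM in DTR replicate 1. Macrophage genes summed to 10.3 to 19.3 CPM in all 6 libraries, and Adgre1 was at 0 in all but WT replicate 3. Other marker sums did not overlap between the genotypes: genes of fibro-adipogenic progenitors stood at 3741 to 5045 CPM in WT and 5170 to 7068 CPM in DTR, those of satellite cells at 4439 to 5801 and 3902 to 4324 CPM, and those of endothelial cells at 1.91 to 2.19 and 3.28 to 5.15 CPM. Most of the progenitor sum was Dcn and Col1a1. The defining progenitor gene Pdgfra overlapped, at 205, 291 and 201 counts in WT and 84, 266 and 396 counts in DTR. The part of these marker sums in the members' values was not tested. None of the 44 pathway genes tested was called.

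In day 7 muscle of wild-type mice given rIL-17A, 3 of 41 members were higher than with PBS (7.32%) and 7 lower (17.1%), against 18.1% of all 12896 genes higher and 16.1% lower. The share of members called is near that of all genes or under it. The 3 that were higher were Ifit2, Cmpk2 and Isg15, and the 7 that were lower were Ifi35, Bst2, Rtp4, Lgals3bp, Ifit3, Usp18 and the GTPase Igtp. With 2 libraries in each group the values themselves carry most of what is known.

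Ifit2 stood at 5.02 and 8.01 CPM with PBS and 16.6 and 22.3 CPM with rIL-17A (log2 change 1.41 ± 0.40 SE, adjusted p = 0.0155). Cmpk2 stood at 2.13 and 5.29 CPM and 10.9 and 14.8 CPM (log2 change 1.62 ± 0.52 SE, adjusted p = 0.0297). Isg15 stood at 2.26 and 3.58 CPM and 7.14 and 11.9 CPM (log2 change 1.53 ± 0.54 SE, adjusted p = 0.0445). Each rIL-17A library lay above each PBS library for the 3 genes. Ifit3, the neighbour of Ifit2, went the other way, with 40.2 and 32.3 CPM and 8.85 and 22.9 CPM (log2 change −1.37 ± 0.37 SE, adjusted p = 0.0121).

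Ifi35 was lower with rIL-17A, at 43.3 and 41.5 CPM with PBS and 18.3 and 17.1 CPM with rIL-17A (log2 change −1.40 ± 0.27 SE, adjusted p = 0.00208). Bst2 stood at 68.03 and 59.1 CPM and 21.6 and 36.3 CPM (log2 change −1.30 ± 0.26 SE, adjusted p = 0.0028). Rtp4 stood at 47.7 and 28.5 CPM and 8.85 and 20.2 CPM (log2 change −1.56 ± 0.37 SE, adjusted p = 0.00644). Groups did not overlap. Lgals3bp stood at 115 and 95.5 CPM and 38.5 and 74.4 CPM (log2 change −1.07 ± 0.27 SE, adjusted p = 0.00836). Igtp stood at 35.1 and 28.9 CPM and 18.2 and 17.5 CPM (log2 change −0.98 ± 0.28 SE, adjusted p = 0.0179).

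Irf7 (15.9 and 29.6 against 19.1 and 39.4 CPM), Ifit1 (28.9 and 14.6 against 8.54 and 17.3 CPM), Gbp2 (25.98 and 18.3 against 18.3 and 11.9 CPM), Iigp1 (11.5 and 22.6 against 12.4 and 15.01 CPM) and Cxcl10 (2.13 and 2.29 against 1.24 and 0.834 CPM) did not pass, PBS before rIL-17A in each. Without rIL-17A replicate 1, 2 members passed (Ifi35 and Bst2), which were also the 2 called under every alternative. Macrophage genes summed to 1605 and 1204 CPM with PBS and 455 and 561 CPM with rIL-17A. Most of each sum was Lyz2, at 1333 and 959 against 331 and 380 CPM, and Cd68 was lower too (139 and 112 against 19.3 and 29.6 CPM). The defining Csf1r was not lower (58.1 and 57.8 against 60.6 and 82.3 CPM), and Adgre1 overlapped (27.99 and 26.5 against 19.1 and 30.8 CPM). In all, 8 of the 13 marker sets did not overlap between these groups. Among them were endothelial genes at 114 to 135 CPM with PBS and 289 to 309 CPM with rIL-17A. Satellite cell genes stood at 166 to 182 and 236 to 292 CPM and epithelial genes at 20.7 to 39.3 and 9.16 to 11.05 CPM. The satellite cell sum rose with Itga7 (537 and 464 against 1032 and 976 counts). The defining Myod1 (65.1 and 64.8 against 40.7 and 38.8 CPM) and Pax7 (7.78 and 4.15 against 2.33 and 3.96 CPM) were lower with rIL-17A. Epcam, a defining epithelial gene, was at most at 0.126 CPM in these libraries. The part of these markers in the members' differences was not tested. Of 61 pathway genes tested, 4 were higher (6.56%) and 12 lower (19.7%), again near or below the shares of all genes. Ifitm3, an antiviral membrane protein (log2 change −1.25), Ifngr1 (−0.96) and B2m, the light chain of class I molecules (−0.91), were lower, and Dtx3l, a partner of Parp9, was higher (1.21).

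**Figure D5:**
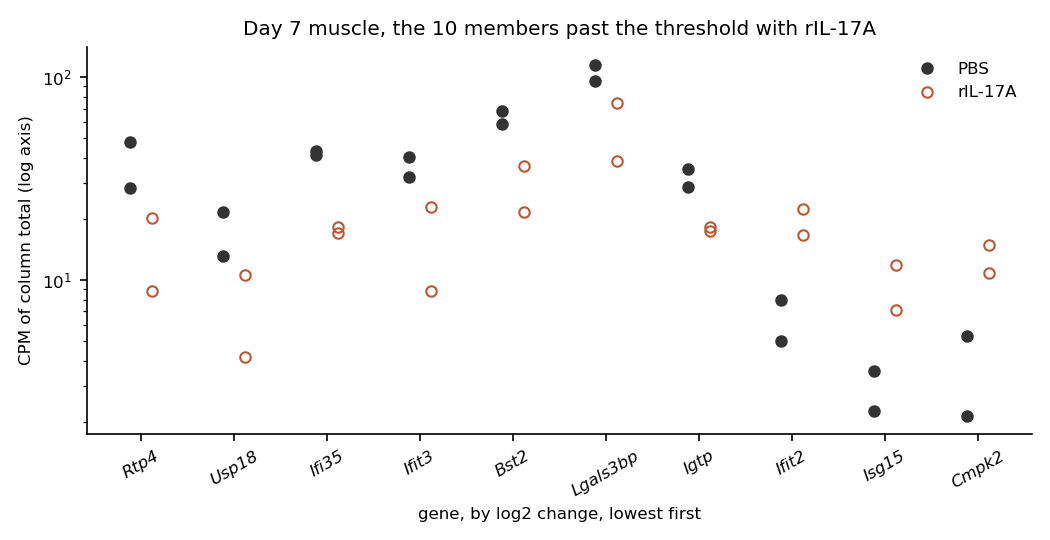
CPM in each library of day 7 muscle with PBS (filled) and rIL-17A (open) for the 10 members past the threshold, on a log axis and ordered by log2 change. The 7 genes on the left are lower in both rIL-17A libraries and the 3 on the right (Ifit2, Isg15 and Cmpk2) higher.

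The wider pathway list was counted in whole muscle in the same steps. Of 65 pathway genes tested, 34 rose (52.3%) and 2 fell from day 1 to day 3 of WT, against 9.58% of all genes rising and 9.36% falling. From day 3 to day 7, 40 fell (61.5%, against 19% of all genes) and none rose, and from day 7 to day 14, 20 fell (30.8%, against 13.2%) and none rose. In DTR 24 rose (36.9%, against 8.48% of all genes) and 2 fell in the first step. In the second 4 rose (6.15%, against 17.1%) and 22 fell (33.8%, against 18.4%), where 5 members rose and 7 fell. In the last 4 rose (6.15%, against 14.6%) and 35 fell (53.8%, against 19.7%), where no member rose. At day 7, 2 of the 65 (3.08%, against 0.641% of all genes) were higher in DTR than in WT. They were Psmb8, an immunoproteasome subunit (log2 change 1.16, adjusted p = 0.0187), and Ifi30, a lysosomal thiol reductase (1.23, adjusted p = 0.0191). None of the 65 was called at the other 3 days.

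Irf1 rose in WT from day 1 to day 3, from 29.1, 23.8 and 23.2 CPM to 84.6, 86.1 and 66.5 CPM (adjusted p = 6.55e-05) and Ifngr1 from 57.5, 86.3 and 84.7 CPM to 212, 163 and 155 CPM (adjusted p = 0.00369). Ifnar1, at 46.2, 70.01 and 54.5 CPM and 132, 95.5 and 94.4 CPM, did not pass this step (adjusted p = 0.0836), but fell to 15.8, 14.8 and 18.1 CPM at day 7 (adjusted p = 9.47e-09). Socs3, an inhibitor of cytokine receptors, was the called gene with the smallest p from day 1 to day 3 and went against the members, with a log2 change of −2.30 in WT and −2.14 in DTR. In the difference of the step from day 3 to day 7 between genotypes, 3 pathway genes were called (4.62%, against 0.203% of all genes). All had the more positive step in DTR: Cxcl9, the sister chemokine of Cxcl10 (3.39 on the log2 scale), Ifi30 (1.55) and Ifitm3 (1.26).

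Among 10449 other genes compared over the 23 time-course libraries, those most like the mean z-score of the members were H2-K1 (Pearson correlation 0.978), Lpcat2, a lipid acyltransferase (0.973), Cdc42, a small GTPase of the cytoskeleton (0.971), B2m (0.969) and Tmsb4x, an actin-binding peptide (0.966). These correlations are a description, since the libraries share their days of injury and the genes share each library's depth and cell makeup. Within the members the likeness to the other 40 was lowest for Iigp1 (0.615), Ifi44 (0.652), Gbp3 (0.758) and Igtp (0.761), of which 3 are GTPases.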

How the data were processed

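The authors deposited a single table of read counts per gene symbol for all 39 libraries. Reads were aligned to mm10 with STAR 2.7.3a and assigned to genes with featureCounts of Subread 2.0.0, per the submitters' processing notes. For the kit, annotation, strand and multi-mapping settings nothing is given in the sources used here.

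Counts were tested as deposited with edgeR 4.0.16 (quasi-likelihood F-test, robust, TMM scaling, filterByExpr at minimum count 10, minimum total 15) in R 4.3.3, with Benjamini-Hochberg adjustment over all genes tested and a threshold of 0.05. The 23 time-course libraries were fitted together over 8 groups, and the Vγ6, rIL-17A and satellite cell libraries were each fitted alone. Printed CPM values are counts scaled to a library total of 1000000, and log2 changes are on the TMM scale. The code was tested on simulated data. The 41 members and all lists were chosen with earlier results of these data known. In each comparison, members named are the called ones (at most 6 per direction, by p) or, with no call, the 3 lowest by p, and Irf7, Isg15, Ifit1, Cxcl10, Gbp2 and Iigp1 throughout. Totals of 2372139 to 10974862 counts put 1 count at up to 0.422 CPM. Limits for a count of 0 use 3 counts and cover counting error only. Replicates differed from each other by more than sampling noise (chi-square per degree of freedom of at least 3.43). Alternatives were DESeq2 1.42.0, other scalings, no filter, a replicate block, the libraries of 1 day alone and leaving out each library. The test of the step from day 3 to day 7 between genotypes and the removal of 2 libraries with many genes detected were chosen after seeing the data. A gene of the wider pathway list, counted within that list, is not reported by name here.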

Additional observations from a re-analysis of the deposited data

Results flagged for a closer look

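The genotypes differed over time in 4 members by the edgeR interaction test of genotype with day over the 23 time-course libraries. Rtp4 had an adjusted p of 0.02785, Rsad2 of 0.03019, Eif2ak2 of 0.0465 and Stat2 of 0.04773. In the contrast of the step from day 3 to day 7, chosen after seeing the data, 9 members fell less or rose more in DTR than in WT muscle. The difference in log2 step was 2.13 ± 0.41 SE for Rsad2 and 2.26 ± 0.43 SE for Rtp4 (adjusted p = 0.01019 for each). It was 1.99 ± 0.41 SE for Stat2 (adjusted p = 0.01422), 2.25 ± 0.47 SE for Usp18 (adjusted p = 0.01538) and 2.00 ± 0.43 SE for Xaf1 (adjusted p = 0.01686). Oas1a followed with 2.29 ± 0.51 SE (adjusted p = 0.02336), Cxcl10 with 3.12 ± 0.71 SE (adjusted p = 0.02491), Bst2 with 1.60 ± 0.37 SE (adjusted p = 0.02617) and Eif2ak2 with an adjusted p of 0.03391. None of these calls held under every alternative, and without DTR day 7 replicate 2 neither test called a member.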

How the results depend on the processing

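Main counts of called members are given first, then those under an alternative, and the cause of each move was not tested. At day 7 (7) they were 3 with library size as the only scale, 13 without the filter on low counts, 1 with the replicate block, 2 in the fit of day 7 alone, 1 without DTR day 1 replicate 2 and WT day 7 replicate 3, and 0 to 11 over fits that left out each library in turn. For WT day 7 to 14 (18) they were 11 by library size and 9 to 23 over left-out libraries. For DTR day 1 to 3 (13) they were 21 without the filter, 29 without the 2 libraries and 6 to 28 over left-out libraries. For DTR day 3 to 7 (12) they were 22 by library size and 5 to 11 over left-out libraries, and by library size Xaf1 turned to −0.18 and Gbp2 to −0.80 (log2). For the interaction with time (4) they were 2 by DESeq2 size factors, 0 by library size, 16 without the filter, 2 with the block, 8 without the 2 libraries, 11 by DESeq2 and 0 to 13 over left-out libraries. For the difference in step (9) they were 4 by library size, 18 without the filter, 15 by DESeq2 and 0 to 16 over left-out libraries. For rIL-17A (10) left-out libraries gave 2 to 15. In satellite cells (0) they were 5 without the filter, 1 by DESeq2 and 0 over left-out libraries. Left-out libraries gave 16 to 22 in Vγ6 cells (19), 40 to 41 for WT over time (41), 37 to 39 for DTR over time (39), 30 to 35 for WT day 1 to 3 (37), 30 to 36 for WT day 3 to 7 (34), 23 to 32 for DTR day 7 to 14 (32) and 0 at days 1, 3 and 14. Where 1 library remained in a group, it was assumed to vary like the others. Same-numbered libraries of the groups compared showed no steady shared deviation (correlations of −0.101 to 0.259, not all over 0.1 in any comparison). Groups of 2 or 3 libraries are too small for this to exclude pairing. The replicate block gave 18 in Vγ6 cells, 38, 34 and 19 in the 3 WT steps, 16, 13 and 30 in the 3 DTR steps, 11 with rIL-17A and 0 in satellite cells.

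Library size as the only scale moved the median log2 change of all genes to 0.40, −0.74 and 0.10 in the WT steps, 0.12, −1.20 and 0.41 in the DTR steps, 0.15 at day 1, −0.25 at day 7, 0.20 with rIL-17A and −0.24 in the difference in step. Depth limits the interferon genes and Trdc most, since they had few or no counts per library in whole muscle.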
